A study of Homo sapiens with 9 samples.

Results

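The core and linker histone genes described here are H4C8, H2AC18, H1-2, H2AC6, H2BC12, H2BC5, H2BC21, H2AC20 and H2BC4. They make 1 core histone H4, 3 core histones H2A, 4 core histones H2B and 1 linker histone H1. They are 9 of 12698 genes tested and were read by 13 of the 47323 probes on the array. All probes annotated with these symbols or their earlier names (HIST1H4H, HIST2H2AA3, HIST1H1C, HIST1H2AC, HIST1H2BK, HIST1H2BD, HIST2H2BE, HIST2H2AC and HIST1H2BC) were taken. The genes were selected on measured values: their differences between ARID1A-restored and DMSO cells on these same arrays were known when they were picked. Those differences therefore describe the genes and test nothing about them, and no threshold of size belongs to the rule.

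The cells were OVISE, 1 established human line from a clear cell carcinoma of the ovary in which ARID1A is mutated; the ARID1A protein is part of SWI/SNF, a complex that moves nucleosomes. All groups were grown in 3D in Matrigel, a basement membrane extract. In the ARID1A group wild-type ARID1A was induced with doxycycline at 1 µg/mL, the GSK126 group received GSK126 at 5 µM, which blocks EZH2, the enzyme that methylates histone H3 at lysine 27, and the DMSO group received vehicle. Each group had 3 arrays, 1 from each of the labelled batches 1, 2 and 3, with the replicate number equal to the batch. Doxycycline was given to the ARID1A group alone, so the drug and the restored subunit cannot be told apart, and the labels do not say whether the other groups carried the inducible construct or whether replicates were separate cultures. The p-values therefore cover the spread among these samples alone, and part of it may be technical.

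Core histones H2A, H2B, H3 and H4 form the protein spool of the nucleosome, and linker histones H1 bind the DNA that enters and leaves it. Most of their genes lie in clusters, are transcribed mainly during S phase, and give mRNAs that end in a stem-loop where other mRNAs have a poly(A) tail. Some clustered genes also give polyadenylated mRNAs, which have been described in differentiating and non-dividing cells. The labelling kit used here primes amplification from the poly(A) tail, so stem-loop forms are expected to be under-represented, and the share of each form was not measured. Clustered histone genes are also close in sequence. H2AC18 and H2AC19 are near-identical copies, as are H4C14 and H4C15, and whether their probes tell the copies apart was not tested.

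Promoter sequences are shown because some of the 9 genes are direct neighbours, while others have none of the 9 beside them. Any link between these sequences and the measured transcripts was not tested. RefSeq (GRCh38.p14) places 6 of the 9 genes on chromosome 6 and 3 on chromosome 1, and all 9 had a promoter window of 300 bases, with 250 before the transcription start and 50 after it. H2BC4 and H2AC6 are neighbours on opposite strands whose starts lie 246 bases apart, so that their windows share 255 bases. H2BC21 and H2AC20 form a second such pair, with starts 236 bases apart and 265 bases shared. The windows of 1 gene from each pair and of the 2 genes with the largest differences after ARID1A restoration are given 5′ to 3′ on the strand of the gene. Capitals mark the octamer ATTTGCAT and the CCAAT box CCAAT on either strand, and the TATA box TATAAA on the strand of the gene; these matches do not overlap one another.
H4C8, chr6:26285485-26285784, minus strand: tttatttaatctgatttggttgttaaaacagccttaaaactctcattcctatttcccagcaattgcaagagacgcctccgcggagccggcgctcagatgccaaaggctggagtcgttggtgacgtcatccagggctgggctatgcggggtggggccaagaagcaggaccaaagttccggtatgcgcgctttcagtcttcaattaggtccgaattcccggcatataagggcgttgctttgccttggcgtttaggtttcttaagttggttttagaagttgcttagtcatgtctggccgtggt
H2AC18, chr1:149842701-149843000, minus strand: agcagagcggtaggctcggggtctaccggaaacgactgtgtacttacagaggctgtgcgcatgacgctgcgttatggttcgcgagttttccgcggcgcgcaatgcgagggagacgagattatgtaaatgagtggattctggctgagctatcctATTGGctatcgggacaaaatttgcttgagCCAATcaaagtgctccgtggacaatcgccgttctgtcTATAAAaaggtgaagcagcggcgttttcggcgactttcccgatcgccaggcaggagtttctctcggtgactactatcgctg
H2BC4, chr6:26123877-26124176, minus strand: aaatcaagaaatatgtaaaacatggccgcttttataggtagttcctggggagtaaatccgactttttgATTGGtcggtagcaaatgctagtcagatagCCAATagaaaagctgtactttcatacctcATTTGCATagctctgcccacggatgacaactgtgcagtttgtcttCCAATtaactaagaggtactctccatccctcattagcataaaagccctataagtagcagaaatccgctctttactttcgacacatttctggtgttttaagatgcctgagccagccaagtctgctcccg
H2BC21, chr1:149886633-149886932, minus strand: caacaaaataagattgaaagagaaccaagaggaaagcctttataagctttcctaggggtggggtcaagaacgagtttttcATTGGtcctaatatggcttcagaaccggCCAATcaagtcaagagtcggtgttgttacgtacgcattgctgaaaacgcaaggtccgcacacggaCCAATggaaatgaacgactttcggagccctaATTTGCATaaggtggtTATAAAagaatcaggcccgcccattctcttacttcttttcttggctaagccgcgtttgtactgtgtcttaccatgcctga

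The octamer, bound by OCT factors and long known from H2B promoters, was found in 5 of the 9 windows, against 1.77% of 35116 promoters of the same length. It lay in 3 of the 4 H2B windows, starting at position −46 in H2BC12 and H2BC21 and at −123 in H2BC4, and in H2AC6 and H2AC20, which share their matches with their paired H2B genes. The CCAAT box was present in 8 of 9 windows (34.6% of all promoters) and the TATA box in 6 of 9 (7.33% of all promoters); H4C8 held none of these letters. The H1 box AAACACA, known from linker histone promoters and searched on both strands, was in 2 of 9 windows, H1-2 and H2AC20 (5.64% of all promoters). Among 55 other clustered histone genes with a window, 21 held the octamer, 46 the CCAAT box and 31 the TATA box. These are letter matches and say nothing on binding.

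Each array had 21317 to 22517 probes above background (detection p under 0.05), and median raw intensity lay between 317 and 349. On probe ILMN_1734496 the ARID1A transcript was above background on 3 of 3 ARID1A arrays, 0 of 3 GSK126 arrays and 0 of 3 DMSO arrays, while on its other probe, ILMN_1797341, it averaged 10.94 in ARID1A cells, 10.86 in GSK126 cells and 11.07 in DMSO cells. On its brightest probe, ILMN_1708105, the EZH2 transcript averaged 10.20, 10.09 and 10.37 in the same order of groups. Of 11 clear cell carcinoma and epithelial markers 10 had a probe and 9 were above background on 9 of 9 arrays; KRT18 was above background on none. Their summed linear level was 323333 to 340891 in ARID1A cells, 301379 to 309385 in GSK126 cells and 295872 to 304326 in DMSO cells. Of 15 markers of leukocytes, fibroblasts and endothelium 9 were above background on no array, PTPRC, COL3A1 and PECAM1 among them. From the leukocyte markers, CD68 was above background on 9 of 9 arrays, with a highest log2 value of 11.87, and CD14 on 8. The summed linear level of these 15 markers was 6743 to 7862 in ARID1A cells, 6638 to 7419 in GSK126 cells and 7207 to 8456 in DMSO cells, and 1 of them, the endothelial marker VWF, was above background on 3 of 3 ARID1A arrays and on no other array; the part of such markers in the histone values was not tested.

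The first comparison, ARID1A against DMSO, asks what restoring the wild-type subunit changes in mutant cells. All values below are normalised log2 intensities of the brightest probe of a gene unless another probe is named, and differences are log2 differences with their standard error (SE) from limma, 3 arrays against 3. For each of the 9 histone genes the 3 ARID1A arrays were above the 3 DMSO arrays. The differences ran from 0.55 for H2BC12 to 1.54 for H4C8, with a median of 0.83, beside a median of −0.00 over all 12698 genes. Of these genes 13.3% had ARID1A arrays wholly above DMSO arrays, and since the choice of the 9 used this contrast, nothing is read from their count. More or fewer cells in S phase and more or less histone RNA per cell cannot be told apart in such bulk samples.

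H4C8, which encodes histone H4, stood at 10.25, 10.46 and 10.93 on the ARID1A arrays, at 8.80, 9.50 and 9.58 on the GSK126 arrays and at 8.56, 9.43 and 9.03 on the DMSO arrays. The ARID1A arrays did not overlap with the others, and the GSK126 and DMSO arrays did. Its difference between ARID1A and DMSO cells was 1.54 (SE 0.28), a 2.90-fold higher mean, and ranked 40 from the top of all genes tested. Without background correction the difference was 1.18 for H4C8 and 1.18 for H2AC18. With the values processed by the authors it was 1.17 for H4C8 and 1.18 for H2AC18.

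Among the H2A genes, H2AC18 read 11.93, 12.20 and 12.58 in ARID1A cells, 11.03, 11.51 and 10.96 in GSK126 cells and 10.72, 11.01 and 11.16 in DMSO cells, a difference of 1.27 (SE 0.20) between ARID1A and DMSO. Its dimmer probe ILMN_1659047 read 8.63, 8.83 and 9.13 in ARID1A cells, 7.21, 8.39 and 7.98 in GSK126 cells and 7.85, 8.18 and 8.27 in DMSO cells, a smaller difference of 0.76 (SE 0.27). Both probes put the ARID1A arrays above the DMSO arrays. H2AC6 read 11.01, 10.93 and 11.48 in ARID1A cells, 10.18, 10.60 and 10.72 in GSK126 cells and 10.14, 10.41 and 10.38 in DMSO cells, a difference of 0.83 (SE 0.18). H2AC20 read 11.88, 12.06 and 12.45 in ARID1A cells, 11.06, 11.54 and 11.19 in GSK126 cells and 11.15, 11.44 and 11.41 in DMSO cells, a difference of 0.79 (SE 0.17). In ARID1A cells all 3 H2A genes were highest in batch 3.

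Among the H2B genes, H2BC4 had the largest difference, 1.17 (SE 0.27), with 9.03, 9.09 and 9.68 in ARID1A cells, 7.90, 8.87 and 8.53 in GSK126 cells and 7.74, 8.30 and 8.25 in DMSO cells. It was the member that moved most with the background step, to 0.72 without background correction, which is below the 0.84 of H2BC5 there. Its divergent partner H2AC6, described above, had the smaller difference of the pair. H2BC5 read 13.78, 14.22 and 14.17 in ARID1A cells, 13.15, 13.68 and 13.72 in GSK126 cells and 12.88, 13.41 and 13.32 in DMSO cells, a difference of 0.85 (SE 0.20). Its second probe, ILMN_1758623, gave 0.94 (SE 0.19), with 10.28, 10.73 and 10.72 in ARID1A cells, 9.79, 10.16 and 10.06 in GSK126 cells and 9.29, 9.77 and 9.85 in DMSO cells. The third, ILMN_1777405, was not above background on any of the 9 arrays and was not tested, so the 2 measured probes of H2BC5 carry its values.

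H2BC21 read 11.84, 11.88 and 12.22 in ARID1A cells, 11.21, 11.52 and 11.69 in GSK126 cells and 10.97, 11.61 and 11.43 in DMSO cells, a difference of 0.65 (SE 0.19). Its divergent partner H2AC20 stood at 0.79. The genes were picked with this contrast known, so nothing is read from the shared direction within this pair or the H2AC6 and H2BC4 pair. H2BC12 read 14.86, 15.36 and 14.98 in ARID1A cells, 14.24, 14.65 and 14.76 in GSK126 cells and 14.38, 14.68 and 14.48 in DMSO cells, a difference of 0.55 (SE 0.17). On its dimmer probe, ILMN_1813314, the ARID1A arrays (11.31, 11.64 and 11.38) overlapped with the DMSO arrays (10.66, 11.50 and 11.01), and the difference was 0.39 (SE 0.21). Of the 3 genes with a second measured probe, H2AC18, H2BC5 and H2BC12, only H2BC12 had groups that overlapped on it.

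The linker histone gene H1-2 read 13.57, 13.93 and 13.85 in ARID1A cells, 12.66, 13.39 and 13.31 in GSK126 cells and 12.91, 13.16 and 12.87 in DMSO cells. The ARID1A arrays lay above all others, with a difference of 0.80 (SE 0.19) from DMSO.

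**Figure D1:**
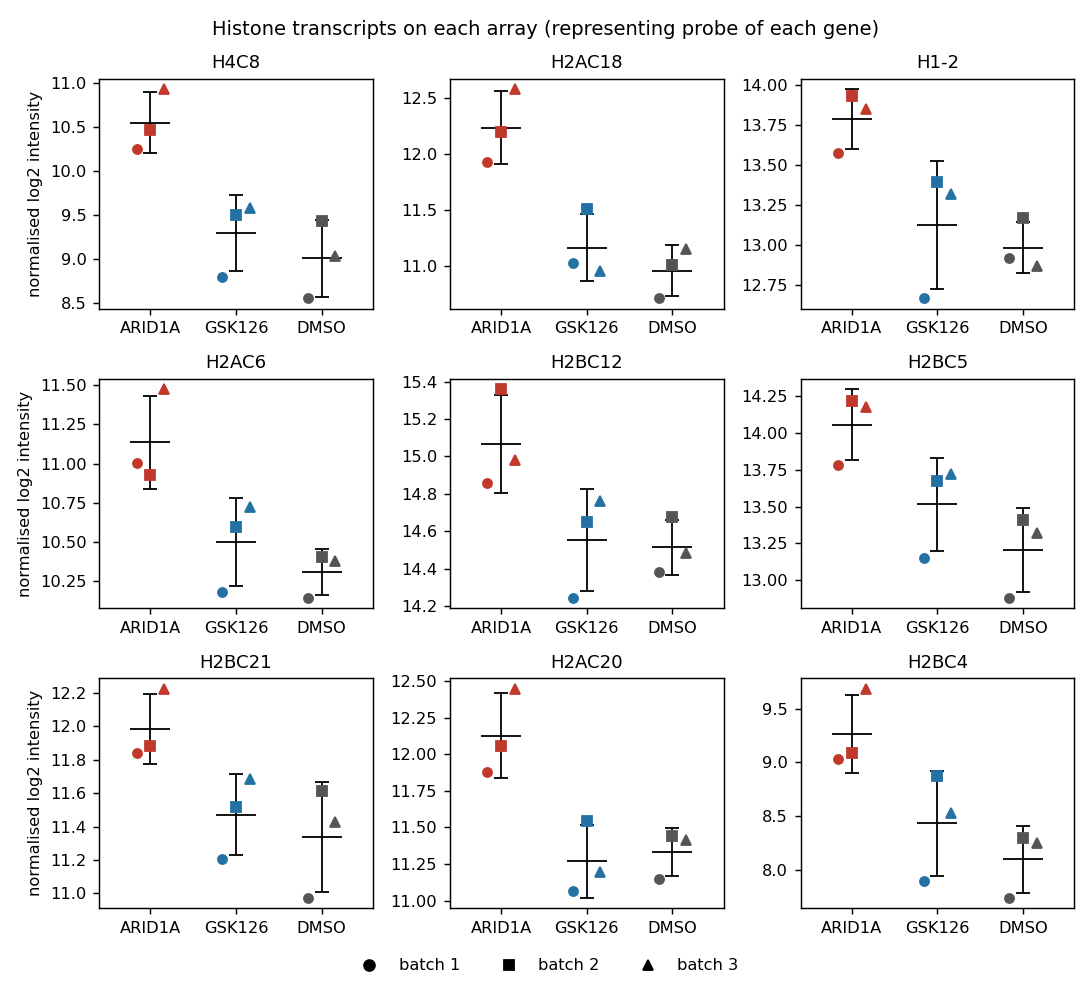
Normalised log2 intensity of the representing probe of each of the 9 histone genes on each array, by group; symbols mark the batch, long bars the mean and whiskers the SD of 3 arrays, and each panel has its own axis, which does not start at 0. In each panel the 3 ARID1A arrays lie above the 3 DMSO arrays and above the 3 GSK126 arrays, and GSK126 and DMSO arrays overlap.

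In each group 8 of the 9 genes had their lowest value in batch 1. This count is given without a share over all genes, and whether other genes did the same was not tested. After centring each gene on its mean over the 9 arrays, the median of the 9 genes was 0.30, 0.62 and 0.83 in batches 1, 2 and 3 of ARID1A cells, −0.47, −0.03 and 0.02 in GSK126 cells and −0.62, −0.18 and −0.27 in DMSO cells. The same median over all genes stayed between −0.01 and 0.01 on every array. Quantiles were made equal across arrays, which keeps this median almost constant by construction, so it is no contrast to the 9 genes. Within batches, the median difference of the 9 genes between ARID1A and DMSO cells was 0.87 in batch 1, 0.76 in batch 2 and 1.03 in batch 3, and each of the 9 was positive in each batch. H2BC5 varied least between batches (0.90, 0.81 and 0.85), and H2BC21 ranged from 0.27 in batch 2 to 0.87 in batch 1.

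**Figure D2:**
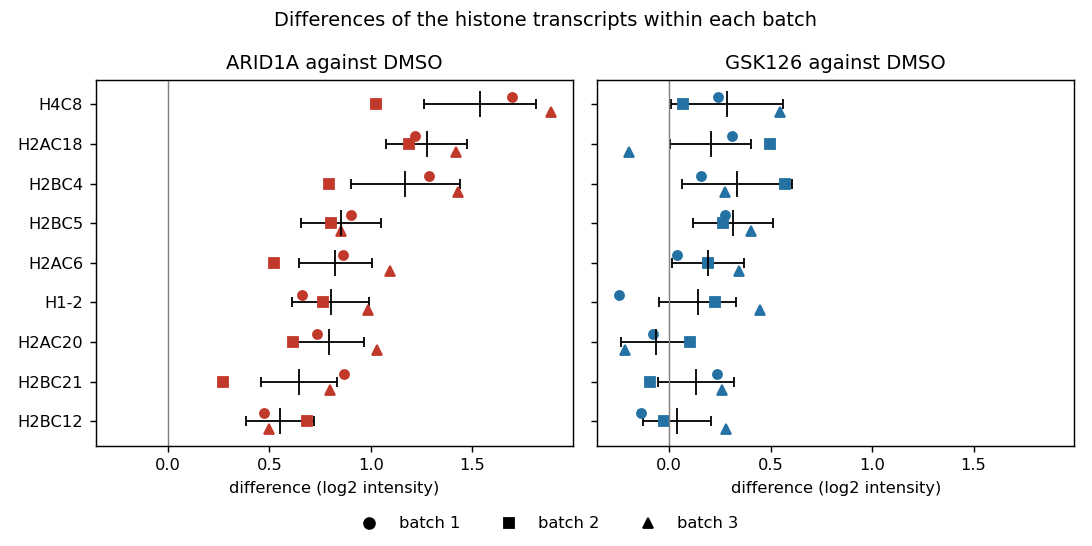
Log2 difference of each of the 9 histone genes from DMSO within each batch (coloured symbols), with the limma estimate (black tick) and its SE (whisker), for ARID1A on the left and GSK126 on the right. Each within-batch ARID1A difference is above 0, from 0.27 to 1.89, whereas GSK126 differences lie on both sides of 0, from −0.25 to 0.57.

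Over all genes, limma called 4 of the 9 higher in ARID1A than in DMSO cells (H4C8, H2AC18, H2AC6 and H2AC20), where 2.01% of all genes were called higher, and with batch as a block it called 9 of 9, where 3.82% were. Both counts concern the contrast that was known when the genes were picked and are given as a description. The count changed with the array left out. It was 0 without ARID1A replicate 3 or without DMSO replicate 1, and 1 without ARID1A replicate 2 or DMSO replicate 3. It was 2 without ARID1A replicate 1, DMSO replicate 2 or GSK126 replicate 3, and 7 without GSK126 replicate 1. The median difference stayed between 0.74 and 0.92. The number of all genes called also changed with the array left out, and its range is given in the closing section. The counts above stand without the share over all genes for the same array, so nothing particular to the 9 is read from them.

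GSK126 was set against DMSO to ask what EZH2 inhibition changes. None of the 9 histone genes passed the test, and their differences were small, from −0.07 (SE 0.17) for H2AC20 to 0.33 (SE 0.27) for H2BC4, with a median of 0.19 beside −0.00 over all genes. That median was 0.35 without GSK126 replicate 1, 0.11 without GSK126 replicate 2, 0.0799 without GSK126 replicate 3 and 0.0805 without DMSO replicate 1. By limma 0 of 9 passed and 0 of 9 had an unadjusted p below 0.05 (1 of 9 with batch as a block, where also 0 passed after adjustment). Over all genes 0% were called in either model, and 1185 of 12698 had an unadjusted p below 0.05. GSK126 and DMSO arrays overlapped for each of the 9, where 7.51% of all genes had GSK126 arrays wholly above and 7.7% wholly below. The difference was 0.31 (SE 0.20, adjusted p = 0.664) for H2BC5, 0.28 (SE 0.28, adjusted p = 0.783) for H4C8 and 0.20 (SE 0.20, adjusted p = 0.787) for H2AC18. The second probe of H2AC18 had the opposite sign, −0.24, and the mean of its probes gave −0.02. In the model without the block the 95% intervals all included 0, and their upper ends ran from 0.32 for H2AC20 to 0.94 for H2BC4. Intervals were not made with the block, where the SE of H2BC5 was 0.07 (limma adjusted p = 0.185). Within batches the median of the 9 was 0.16, 0.19 and 0.28 in batches 1, 2 and 3, with 6, 7 and 7 of the 9 positive. H4C8, H2AC6, H2BC5 and H2BC4 were higher under GSK126 in each of the 3 batches, with 0.27, 0.26 and 0.40 for H2BC5. H2AC18, H1-2, H2BC12, H2BC21 and H2AC20 were lower in at least 1 batch. The share of all genes higher in each batch was not determined, so no rise under GSK126 is read from these signs. This comparison uses the same DMSO arrays as the one above, which was known when the genes were picked. Low values on those arrays would raise both differences. The signs for the 9 are therefore not independent of that choice and are given as a description.

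Set directly against ARID1A, the GSK126 arrays were lower for each of the 9 histone genes without overlap, where 11.4% of all genes had GSK126 arrays wholly below. The comparison shares its ARID1A arrays with the one that was known when the genes were picked. Its direction, p-values and counts for the 9 are therefore not independent of that choice and are given as a description. H2AC18 was lower by limma at −1.07 (SE 0.20, adjusted p = 0.0294 without and 0.0209 with the block), and so was H2AC20 at −0.86 (SE 0.17, adjusted p = 0.036, and 0.0201 with the block). H4C8 stood at −1.25 (SE 0.28, adjusted p = 0.0519) and passed with the block (adjusted p = 0.00968). With the block 6 of 9 passed, H1-2 (−0.66, adjusted p = 0.0392), H2AC6 (−0.63, adjusted p = 0.0387) and H2BC5 (−0.54, adjusted p = 0.0128) being the others. Without the block 1.54% of all genes were called lower in GSK126 than in ARID1A cells, and with it 2.36%. H2BC4 (−0.84), H2BC12 (−0.51) and H2BC21 (−0.51) passed in neither model (adjusted p from 0.0504 to 0.208). The calls of H2AC18 and H2AC20 were lost without ARID1A replicate 2 or 3 and without GSK126 replicate 1 or 3, with adjusted p between 0.0689 and 0.117, and that of H2AC20 also without DMSO replicate 2 or 3 (0.0547 and 0.0587).

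Other histone genes were set beside the 9. Of 60 further clustered core and linker histone genes with a named probe, 36 were not above background on at least 3 arrays, and 5 of the remaining 24 (H2AC7, H2AC8, H2AC17, H3C13 and H4C5) were kept only because their ARID1A arrays counted towards the filter. Counts are therefore given for the 15 genes above background on 9 of 9 arrays, a filter that favours no group. In ARID1A against DMSO these 15 had a median of 0.54 with 13 positive, and 8 had ARID1A arrays wholly above DMSO arrays (13.7% of all genes above background on 9 of 9 arrays). Of the 15, 2 rose and 0 fell, where 1.81% of such genes were called higher, and 7 rose with batch as a block, where 3.72% were.

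H3C10, which encodes histone H3, rose by 1.18 (SE 0.23, adjusted p = 0.0339), with 8.54, 8.95 and 8.75 in ARID1A cells and 7.31, 8.08 and 7.31 in DMSO cells. H2AC19, the near-identical copy of H2AC18, rose by 1.08 (SE 0.20, adjusted p = 0.029), with 12.12, 11.93 and 12.50 in ARID1A cells and 10.99, 11.18 and 11.15 in DMSO cells. In both the groups did not overlap. H2BC8 stood at 1.28 (SE 0.36, adjusted p = 0.101, and 0.0172 with the block). These 3 genes outside the set had larger differences than 6 of the 9. H4C5, another H4 gene, read 7.56, 8.03 and 8.95 in ARID1A cells, 6.15, 6.56 and 7.01 in GSK126 cells and 6.19, 6.46 and 6.85 in DMSO cells. It was above background on 3 of 3 ARID1A arrays and on 1 of 3 arrays of each other group, so its level is a description with no test, at least 2.57-fold higher in ARID1A than in DMSO cells. For such a bound a DMSO value below the dimmest detected probe of its array was replaced by that probe's value. H4C5 had the largest bound. The others were 2.23 for H2BC6, 1.56 for H2AC8, 1.29 for H2AC17, 1.14 for H2AC7 and 1.00 for H3C8. H1-3, a linker histone gene, had the most negative difference of the tested genes, −0.28 (SE 0.28, adjusted p = 0.625).

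For GSK126 against DMSO 0 of the 15 passed by limma in either model, where 0 of all 12698 genes passed. The median of the 15 was 0.01. Over all 24 tested genes the ends were −0.41 (SE 0.28, adjusted p = 0.7) for H1-3 and −0.28 (SE 0.10, adjusted p = 0.468) for H4C3, and 0.18 (SE 0.23, adjusted p = 0.841) for H4C15 and 0.44 (SE 0.22, adjusted p = 0.589) for H4C11. In GSK126 against ARID1A 1 of the 15 was lower, H2AC19, which fell by 1.06 (SE 0.20, adjusted p = 0.0301), where 1.28% of genes above background on 9 of 9 arrays were called lower. With the block 5 of the 15 fell, where 2.13% did.

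Of the histone variant genes outside the clusters, most of which give polyadenylated mRNA, 11 were tested. None passed in either model for ARID1A against DMSO, where 361 of all 12698 genes were called without the block and 774 with it. Nothing is read from this count in so short a list. The median was 0.04. H2AJ stood at 0.52 (SE 0.17, adjusted p = 0.133) and MACROH2A1 at 0.29 (SE 0.09, adjusted p = 0.132), while the centromeric variant CENPA stood at −0.20 (SE 0.28, adjusted p = 0.74) and H2AZ1 at −0.19 (SE 0.10, adjusted p = 0.354). For GSK126 against DMSO the median was −0.06, and CENPA (−0.38), H2AX (−0.24), MACROH2A1 (0.11) and H3-3B (0.27) had adjusted p between 0.675 and 0.753.

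Genes that serve histone synthesis showed no call, and nothing is read from this in lists so short. Over all 12698 genes 361 were called for ARID1A against DMSO (774 with the block). For GSK126 against ARID1A these counts were 317 and 530, and for GSK126 against DMSO 0 in both models. Of 22 factors of histone transcription and mRNA processing, 0 passed by limma in any of the 3 comparisons with or without the block. Their median was −0.06 for ARID1A against DMSO and −0.09 for GSK126 against DMSO. SLBP, which binds the stem-loop of histone mRNA, stood at −0.18 (SE 0.10, adjusted p = 0.348) in ARID1A against DMSO, and UPF1, a factor of RNA decay, at 0.13 (SE 0.10, adjusted p = 0.548). LSM11 (−0.18), above background on no ARID1A array, and CRAMP1 (0.04) were the others at the ends of the list. Under GSK126 LSM11 (−0.38), CSTF2 (−0.33), ERI1 (0.03) and LSM10 (0.23) were at the ends. Of 29 histone chaperones 0 passed, with medians of −0.10 for ARID1A and −0.14 for GSK126. CHAF1A, the large subunit of chromatin assembly factor, stood at −0.33 (SE 0.12, adjusted p = 0.183) and NAP1L1 at −0.28 in ARID1A against DMSO, with UBN1 (0.20) and UBN2 (0.19) at the other end. TONSL (−0.40), HJURP (−0.35), VPS72 (0.15) and ASF1A (0.17) were at the ends under GSK126.

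DNA replication and S phase genes, which accompany histone synthesis in dividing cells, lay below 0. Of 42 tested 39 were negative in ARID1A against DMSO and 37 in GSK126 against DMSO, with medians of −0.15 and −0.16. Of all 12698 genes 6424 and 6442 were negative. By limma 0 of the 42 passed in either comparison or model. Of all genes 361 passed for ARID1A against DMSO (774 with the block) and 0 for GSK126 against DMSO. The helicase subunit MCM6 stood at −0.41 (SE 0.14, adjusted p = 0.163) and MCM10 at −0.35 in ARID1A against DMSO, with PRIM2 (0.20) and LIG1 (0.16) at the other end. Under GSK126 MCM10 (−0.54), CDC45 (−0.52), E2F1 (0.51) and PRIM2 (0.59) were at the ends (adjusted p from 0.377 to 0.522). ARID1A arrays lay wholly above DMSO arrays for 0 of the 42 (13.3% of all genes) and wholly below for 9 (11.9% of all genes). GSK126 arrays lay wholly above DMSO arrays for 2 (7.51% of all genes) and wholly below for 13 (7.7% of all genes).

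**Figure D3:**
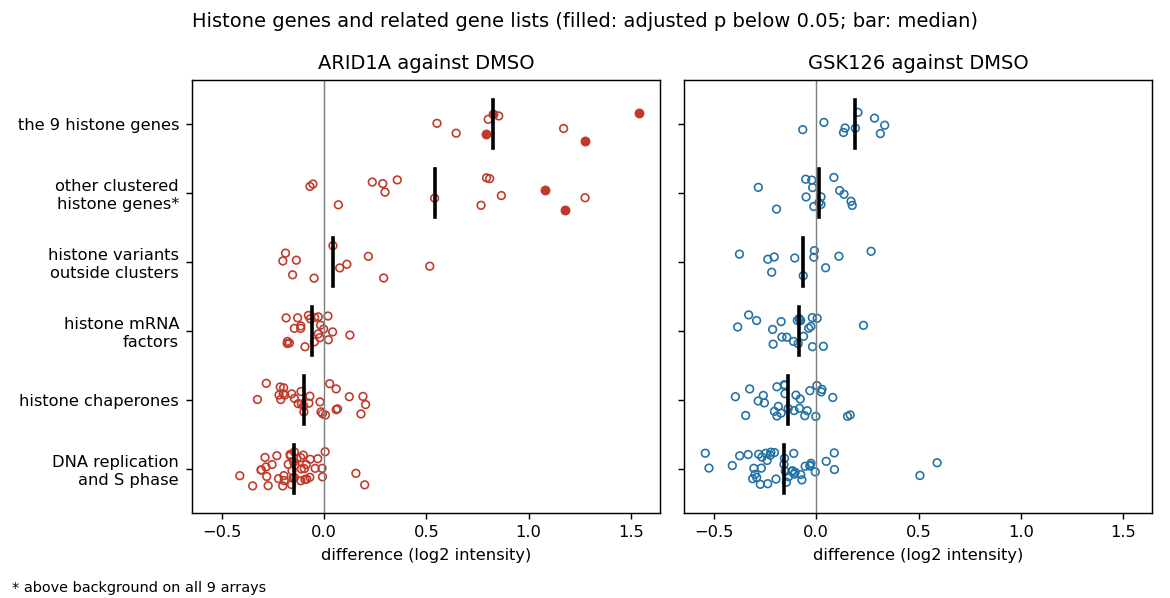
Log2 difference from DMSO of the genes of 6 lists (of the other clustered histone genes, those above background on all 9 arrays), for ARID1A on the left and GSK126 on the right; filled points passed at an adjusted p below 0.05 in limma without the block and black bars are list medians. In the ARID1A panel the medians are 0.83 for the 9 histone genes, 0.54 for the 15 other clustered histone genes above background on 9 of 9 arrays and −0.15 for DNA replication genes; in the GSK126 panel they lie between −0.16 and 0.19 and no point is filled.

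Likeness to the 9 genes was measured as the root mean square difference, over the 9 arrays, between the centred values of a gene and the centred median of the 9. The closest of the other 12689 genes were TNS1 (0.13), a focal adhesion protein, DAB2 (0.14), an endocytic adaptor, CTNNAL1 (0.16), the histone H4 gene H4C14 (0.16) and CROT (0.16), an acyltransferase of peroxisomes. For the 9 themselves the same measure ran from 0.11 for H2BC5 to 0.30 for H4C8. TNS1 was above background on 8 of 9 arrays and the other 4 on 9 of 9.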

How the data were processed

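RNA of 9 samples of OVISE cells was hybridised to an Illumina expression array. The deposited table holds a raw linear intensity per probe and array, made with GenomeStudio per the submitters' processing notes, and a detection p-value beside each intensity; no genome build is named in the labels. A second deposited table, with linear intensities that share 1 set of quantiles across arrays, served as an alternative.

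The analysis of raw intensities used limma 3.58.1 (R 4.3.3). Background was corrected with normexp in neqc, which inferred the negative controls from detection p-values; values then had 16 added, were made equal in quantiles and were put on the log2 scale, so a change in total RNA per cell is not seen. The filter kept 23014 probes whose detection p was below 0.05 on 3 or more of 9 arrays, and each of 12698 genes was represented by its brightest kept probe. Platform symbols were updated by Entrez identifier with RefSeq names of GRCh38.p14 (30074 of 30113 probes with 1 symbol; 8 had several). Probes of a gene other than the representing one were tested in a fit over all kept probes.

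All 9 arrays entered 1 model with 3 group means (lmFit and eBayes, 6 residual degrees of freedom), two-sided, with Benjamini-Hochberg adjustment over all genes at 0.05. Adjusted p-values in the text are from this limma model unless another is named. Labelled batches are shared by all groups and pair the samples. After removal of group means, the correlation was 0.102 to 0.326 in the 9 pairs from the same batch and −0.227 to 0.042 in the 18 others. A second model added batch as a block, leaving 4 residual degrees of freedom, and its values are given where a call changes. Alternatives covered the block, background, the authors' table, offset, filters, probe choice and leaving out each array.

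The members and lists were chosen with earlier results of these data known. All members were named, with the 2 most positive and 2 most negative genes of each related list for each drug or induction against DMSO, called histone genes, ARID1A, EZH2 and the 5 genes most like the members; marker lists are given as counts. The number of arrays limits the precision. One further gene under the selection rule is not reported here.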

Additional observations from a re-analysis of the deposited data

How the results depend on the processing

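The median difference of the 9 histone genes kept its sign in all 3 comparisons under every alternative run. With the replicate block, which follows the labelled pairing by batch, 9 of 9 histone genes and 774 genes in all were called for ARID1A against DMSO, and 6 histone genes and 530 genes for GSK126 against ARID1A. Without background correction these counts were 9, 632, 5 and 512, and with the values processed by the authors they were 9, 644, 5 and 513. For ARID1A against DMSO 7 histone genes and 424 genes in all were called with an offset of 50. With only probes above background on all 9 arrays 7 histone genes and 365 of 11125 genes were called. The counts were 7 and 461 of 11037 with a detection p below 0.01, and 2 and 254 of 20046 with no detection filter. For GSK126 against ARID1A 1 histone probe was called when all probes were tested. The cause of these changes was not tested. Without any 1 array, the counts for ARID1A against DMSO were 0 to 7 histone genes and 92 to 404 genes, and for GSK126 against ARID1A 0 to 3 histone genes and 108 to 255 genes. The median of the 9 then lay between 0.74 and 0.92 for ARID1A against DMSO, between 0.0799 and 0.35 for GSK126 against DMSO and between −0.79 and −0.48 for GSK126 against ARID1A. For GSK126 against DMSO 0 genes were called under every alternative by limma, with 1185 at an unadjusted p below 0.05 (1741 with the replicate block). Only 3 histone genes had a second measured probe, and in GSK126 against DMSO 1 of these 3 probes had the sign of the representing one. On second probes the replicate block brought H2AC18 (adjusted p = 0.0489) and H2BC5 (0.0284) past the threshold for GSK126 against ARID1A. The histone genes it added were H1-2, H2BC4, H2BC5, H2BC12 and H2BC21 for ARID1A against DMSO and H4C8, H1-2, H2AC6 and H2BC5 for GSK126 against ARID1A.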
